A study of Marchantia polymorpha with 18 samples.

Results

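A set of 40 of the 19355 genes counted was little read in intact thallus of the liverwort Marchantia polymorpha and more in crushed lobes. The set was chosen by measured levels in CPM, which is a gene's count divided by the library's total count and multiplied by 1000000. A gene belonged to it when its mean was below 1 CPM over the 6 libraries of intact plants, and at least 5 CPM over the 3 damaged libraries of each genotype. The rule met 45 genes, and 5 of these were left out with a fixed list of other loci. Because intact and damaged levels selected the genes, the difference between these states is a description, and tests that use either level are limited by that choice. The names table gave a symbol to 9 of the 40 genes and only a locus number to the other 31.

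Libraries came from thallus, the flat plant body, of wild-type plants and of Mpglr-9, a CRISPR deletion mutant of MpGLR, which encodes a glutamate receptor-like protein. The plants had spent 28 days on soil. Intact plants were not wounded. In the others 2 lobes were crushed with forceps, and 4 h later these lobes (damaged) were sampled apart from their untouched neighbours (systemic). Each of the 6 groups, wild type and Mpglr-9 in the intact, damaged and systemic state, had 3 libraries, each from a pool of 9 plants. The mutant is represented by 1 deletion line.

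Plants keep many defence genes nearly inactive until tissue is injured. Crushing breaks cells, releases substrates and enzymes that are otherwise kept apart, and starts the synthesis of oxylipins, which act as wound signals in land plants. Typical products of such genes oxidise or couple phenolic compounds, conjugate toxic molecules, or regulate further transcription. Glutamate receptor-like channels are known in Arabidopsis for carrying wound signals from a damaged leaf to distant ones.

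Total counts ran from 17312755 to 30690205 per library, and 3 counts, taken as the limit for a gene without a read, equalled 0.0978 to 0.173 CPM. This limit covers counting error only. The 3 photosynthesis markers used to check the tissue summed to 634.6 to 725.5 CPM in intact and systemic libraries and to 270 to 416.5 CPM in damaged ones. Summed markers of dividing cells, 28 genes, went from 1609 to 1799 CPM in intact libraries to 995.6 to 1275 CPM in damaged ones. The 5 oil body markers summed to 124 to 156.9 CPM in intact and 368 to 505.8 CPM in damaged libraries, and MpC1HDZ made up most of this, at a mean of 101 CPM in intact, 403 in wild-type damaged and 389 in mutant damaged lobes. The other 4 oil body markers lay at most at 26.6 CPM in intact and 22.8 CPM in damaged lobes on average. Of the 3 male reproductive markers, MpPRM was under 1 CPM in every library, and the 3 together summed to 11.6 to 17.4 CPM over all 18 libraries. The female list matched only MpRKD, at 206 to 253 CPM throughout, and no female tissue is read from this gene alone. The gemma cup list matched 4 genes, MpKAI2A, MpKAI2B, MpSMXL and MpGCAM1. They summed to 188 to 233 CPM in intact and 288 to 423 CPM in damaged libraries, and no gemma cup tissue is read from this sum. None of these markers is among the 40 genes, no rhizoid marker was matched, and the part of any cell type in the results was not tested. In such bulk samples, more cells of a type and more RNA per cell cannot be told apart.

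The 40 genes were a small part of what was silent. Of 7216 genes with an intact mean below 1 CPM, 6940 also stayed below 1 CPM in damaged lobes of both genotypes, and 191 reached at least 1 CPM in both. Intact means of the 40 genes ran from 0.0168 CPM (Mp1g09220) to 0.995 CPM (Mp3g06600), with a median of 0.405. The intact mean was below 0.5 CPM in 23 genes and below 0.1 CPM in 5. Summed over all 6 intact libraries, a gene had between 3 and 161 reads, and 11 of the 40 had an intact library without any read. In damaged lobes the means over 6 libraries ran from 5.60 CPM (MpGRAS7) to 102 CPM (MpPPO31), with a median of 10.9. Every gene was read in all 6 damaged libraries, at 2 CPM or more, and 31 genes had at least 5 CPM in each of them. CPM is not scaled by transcript length, so these figures order genes by reads and not by transcript number. For the 39 genes with more than 3 intact reads in total, the ratio of damaged to intact mean CPM lay between 8.31 (Mp1g25130) and 297 (MpPPO31), and the rule itself required a ratio above 5.

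**Figure D1:**
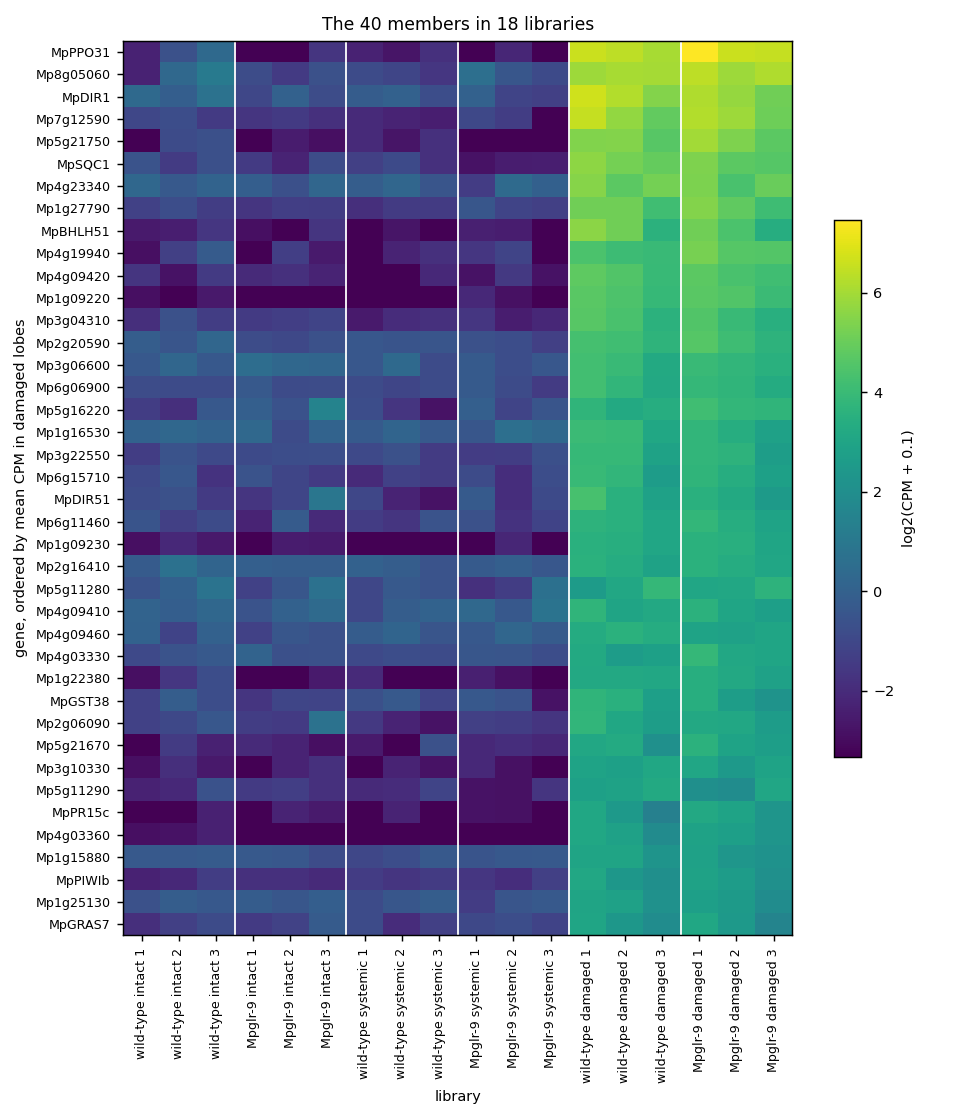
Levels of the 40 genes as log2(CPM + 0.1), with genes in rows ordered by mean CPM in damaged lobes and the 18 libraries in columns, 3 per group. All 12 intact and systemic columns are dark and all 6 damaged columns are bright, and a few brighter intact cells such as Mp5g16220 in Mpglr-9 intact 3 stand out.

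The lowest damaged library lay above the highest intact library in all 40 genes, which the rule favours. In the edgeR fit to all genes every member was called higher in damaged than in intact lobes of both genotypes, a contrast the rule used, where 27.7% of all tested genes were called higher in the wild type and 27.6% in the mutant. With upper-quartile scaling 37.8% of the called genes were higher in each genotype, in place of 50% and 50.4%. Nothing is read from that count. Nearest to the intact limit were Mp3g06600, Mp2g16410 and Mp4g09410 inside, at 0.995, 0.959 and 0.949 CPM, and Mp7g05480, MpRLK-Pelle_URK-Pp-1b and Mp5g02630 outside, at 1.01, 1.03 and 1.03 CPM. Mp5g02630, just outside, had 91.4 CPM in wild-type and 83.6 CPM in mutant damaged lobes. At the damaged limit, the lower of the genotype means was 5.31, 5.45 and 5.51 CPM for Mp5g11290, Mp1g25130 and Mp1g15880 inside, and 4.75, 4.74 and 4.65 CPM for Mp3g20700, MpFTPSL8 and Mp2g06770 outside.

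Among genes that act on phenolic compounds, MpPPO31 had the most reads. It encodes a polyphenol oxidase, a type of enzyme that oxidises phenols to reactive quinones. Its levels were 0.107, 0.534 and 1.21 CPM in wild-type intact libraries and 0, 0 and 0.219 CPM in mutant intact ones. In damaged lobes they were 97.8, 84.5 and 66.2 CPM in the wild type and 177, 96.4 and 92.3 CPM in the mutant. The mutant library numbered 1 was the highest of all, the other mutant libraries lay inside the range of the wild type, and in intact plants the highest value was in wild-type library 3. The ranges of the genotypes therefore overlapped in both states. Among the 57 polyphenol oxidase genes, 31 were below 1 CPM in intact plants and 24 of these were also below 1 CPM in damaged lobes of both genotypes. The other 26 had an intact mean of at least 1 CPM. Of 35 other tested polyphenol oxidase genes, 11 were called higher and 4 lower in damaged wild-type lobes, and 10 higher and 2 lower in mutant ones. The shares called higher, 31.4% and 28.6%, lay near those of all tested genes, 27.7% and 27.6%, while 27.8% and 27.2% of all tested genes were called lower. MpPPO22, with an intact mean of 157 CPM, reached 3986 ± 243 CPM (SD, n = 3) in damaged wild-type lobes; it was named after its values were seen, as were the family members and neighbours cited below.

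MpDIR1 and MpDIR51 encode dirigent proteins, which in flowering plants steer the coupling of phenoxy radicals. MpDIR1 was read at 1.17, 0.845 and 1.60 CPM in wild-type and 0.395, 0.931 and 0.475 CPM in mutant intact libraries. Crushed lobes had 103, 74.6 and 44.0 CPM in the wild type and 72.7, 54.8 and 34.4 CPM in the mutant. Library 1 was the highest and library 3 the lowest in both genotypes, and the genotypes overlapped. MpDIR51 had 20.2, 11.4 and 7.06 CPM in wild-type and 11.4, 9.23 and 5.77 CPM in mutant damaged lobes, again highest in library 1. Its intact levels were 0.215 to 0.534 CPM in 5 libraries and 1.79 CPM in mutant library 3, which held 49.2% of its summed intact CPM. In the family of 59 dirigent genes, 22 were below 1 CPM in intact plants and 15 of them were below 1 CPM in damaged lobes as well. Of 45 tested dirigent genes outside the set, 30 were called higher and 3 lower in the wild type and 29 higher and 2 lower in the mutant. This is 66.7% and 64.4% called higher, where 27.7% and 27.6% of all tested genes were. Family counts, here and for the other families, include the loci left out with the fixed list. Some of the 22 dirigent genes below 1 CPM in intact plants met the rule and were left out only by that list. The shares called higher are therefore not those of the family without these loci.

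Further genes of defence and detoxification had lower read numbers. MpPR15c belongs to class 15 of the pathogenesis-related proteins, the germin-like proteins, some of which are oxalate oxidases in cereals. It was read 8 times in the 6 intact libraries and 821 times in the 6 damaged ones, at 8.55, 5.58 and 2.51 CPM in the wild type and 9.15, 7.47 and 4.89 CPM in the mutant. All 11 genes with a PR15 symbol were below 1 CPM in intact plants, and 7 stayed below it in damaged lobes. MpPR15e, which lies close to MpPR15c in locus order, was called higher in both genotypes, from 0.251 CPM to 3.19 ± 1.14 CPM in wild-type and 2.86 ± 0.319 CPM in mutant damaged lobes (SD, n = 3; edgeR quasi-likelihood test, adjusted p = 1.05e-05 and 0.000210). MpPR15d, the next locus after MpPR15c, reached 1.27 ± 1.06 and 0.821 ± 0.405 CPM and was also called (adjusted p = 0.00241 and 0.0142 with edgeR). MpGST38 encodes a glutathione S-transferase, an enzyme that attaches glutathione to reactive compounds. Its damaged levels were 13.1, 11.4 and 6.62 CPM in the wild type and 10.9, 6.41 and 4.61 CPM in the mutant, against at most 0.801 CPM in an intact library. The other glutathione S-transferase genes behaved differently among themselves, with 13 of 31 tested (41.9%) called higher and 8 lower in each genotype, and 29 of the 35 genes in the family were at or above 1 CPM in intact plants.

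Regulators made up another part of the named genes. MpBHLH51, a transcription factor of the basic helix-loop-helix class, had 18 reads in the 6 intact libraries together. It was at 48.2, 34.4 and 12.2 CPM in wild-type damaged and 34.7, 21.0 and 10.5 CPM in mutant damaged lobes, the widest spread between damaged libraries of all 40 genes, with a ratio of highest to lowest of 3.95 in the wild type and 3.30 in the mutant. Of the 15 basic helix-loop-helix genes below 1 CPM in intact plants, 14 were below 1 CPM in damaged lobes too. MpBHLH4, with an intact mean of 2.72 CPM, was outside the limit and reached 359 ± 65.0 CPM in the wild type and 386 ± 64.8 CPM in the mutant (SD, n = 3). MpGRAS7, of the plant-specific GRAS family of transcriptional regulators, was at 7.97, 5.12 and 3.75 CPM in wild-type and 8.39, 5.57 and 2.81 CPM in mutant damaged lobes. It was the only one of 11 GRAS genes with an intact mean below 1 CPM. Among the other 10, MpGRAS4 was called higher in both genotypes (log2 fold change 2.04 and 1.76, edgeR adjusted p = 5.43e-08 and 2.39e-07), while 4 were called lower in the wild type and 5 in the mutant.

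MpPIWIb carries the name of the PIWI family, which in animals binds small RNAs. It was read at 0.107 to 0.293 CPM in intact and 8.84, 5.12 and 4.10 CPM in wild-type damaged libraries, and at 7.37, 6.10 and 4.20 CPM in mutant damaged ones. The adjacent MpPIWIa, the only other gene of that name, was called higher as well, from 0.396 CPM to 3.16 ± 1.37 CPM in the wild type and 2.29 ± 0.756 CPM in the mutant (SD, n = 3; edgeR adjusted p = 1.75e-05 and 0.000282). MpSQC1 had 49.1, 37.0 and 30.1 CPM in wild-type and 41.7, 27.1 and 24.6 CPM in mutant damaged lobes, against 0.112 to 0.569 CPM in intact libraries. MpSQC2, the gene of the same name and a higher number, was already at 4.13 CPM in intact plants and was called higher, at log2 fold changes of 1.57 and 2.01 (edgeR adjusted p = 8.72e-07 and 5.31e-08).

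**Figure D2:**
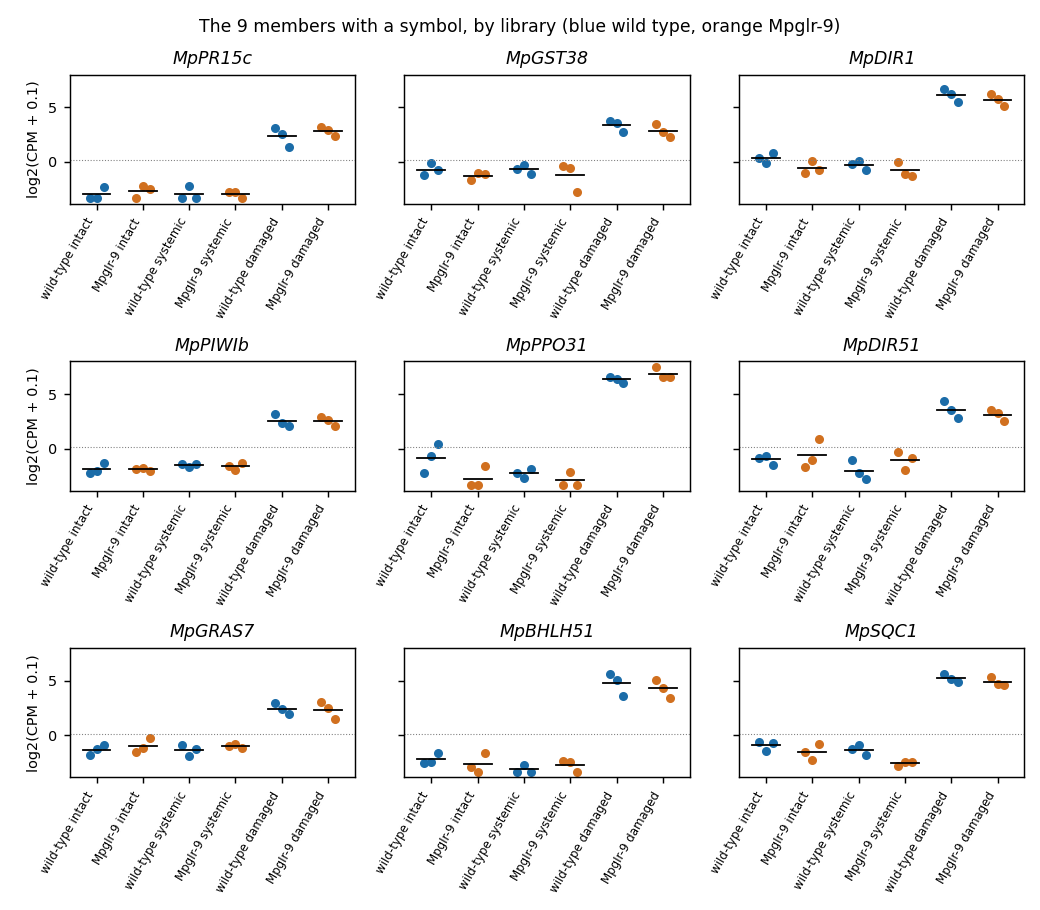
The 9 genes with a symbol in all 6 groups, as log2(CPM + 0.1) per library, with a bar at the mean of 3 libraries on this scale, blue for the wild type and orange for Mpglr-9, and a dotted line at 1 CPM. In each panel the 6 damaged points lie above all 12 intact and systemic points, and within damaged groups the left point (library 1) is the highest for all 9 genes.

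Genes without a symbol were the majority, and some had as many reads as the named ones. Mp8g05060 was at 59.6, 66.0 and 63.5 CPM in wild-type and 85.0, 59.8 and 72.1 CPM in mutant damaged lobes and overlapped between the genotypes. Its intact levels were uneven, with 0.107, 1.16 and 2.09 CPM in the wild type and 0.261 to 0.548 CPM in the mutant. Mp7g12590 had 90.3, 52.3 and 29.2 CPM in wild-type and 75.7, 58.2 and 34.0 CPM in mutant damaged lobes, and at most 0.489 CPM in an intact library. Mp5g21750 had 42.7, 43.7 and 25.4 CPM in the wild type and 63.2, 41.5 and 27.0 CPM in the mutant. In Mp7g12590 and Mp5g21750 the genotypes overlapped, and library 3 was the lowest in each.

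Further down by reads, Mp4g23340, Mp1g27790, Mp4g19940 and Mp4g09420 had means of 33.8, 29.6, 23.3 and 21.8 CPM over the 6 damaged libraries. Mp3g04310 was at 19.4 ± 6.74 CPM in wild-type and 16.6 ± 6.12 CPM in mutant damaged lobes (SD, n = 3), and Mp2g20590 and Mp3g06600 had means of 17.3 and 14.0 CPM over both. Together the 5 genes with the most reads, MpPPO31, Mp8g05060, MpDIR1, Mp7g12590 and Mp5g21750, held 41.6% of the summed damaged CPM, and 17 genes had means under 10 CPM.

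The nearest to complete silence was Mp1g09220. It had 3 reads in the 6 intact libraries together, of which none were in the mutant, and 2784 reads in the 6 damaged ones, at 25.9, 22.0 and 14.8 CPM in the wild type and 26.0, 23.4 and 16.2 CPM in the mutant. Its neighbour Mp1g09230 had 10 reads in intact and 1328 in damaged libraries. Mp4g03360 had 5 intact reads, all in the wild type, no read in any systemic library, and 821 reads in damaged lobes. Each intact library had at most 2 reads of Mp1g09220, and no fold is given for it.

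Several members lay next to each other in locus order, taken here as the order in which the deposited counts list the genes. Of the 40 genes, 13 had another member within 10 genes, in 6 stretches. The same count was not made for other genes, so no grouping is read from it. Mp1g09220 and Mp1g09230 were adjacent, and the locus before them, Mp1g09210, rose at log2 fold changes of 2.70 and 2.87 (edgeR adjusted p = 2.40e-05 and 9.12e-06), while Mp1g09240 after them was not called (log2 fold change -3.31 and -1.76, adjusted p = 0.134 and 0.396 with edgeR). Between Mp4g03330 and Mp4g03360 lay Mp4g03340 and Mp4g03350, at 99.0 and 96.1 CPM in wild-type damaged lobes and 3.37 and 3.05 CPM in intact plants. Mp4g09410, Mp4g09420 and Mp4g09460 shared a stretch with Mp4g09430, which rose to 49.6 CPM in wild-type damaged lobes from 3.94 CPM (log2 fold change 3.57, edgeR adjusted p = 4.91e-11), and with Mp4g09450, which fell by 0.84 on the log2 scale (edgeR adjusted p = 0.000103). Next to Mp5g21750 stood Mp5g21760, at 849.8 CPM, and Mp5g21770, at 158.6 CPM in wild-type damaged lobes, with intact means of 3.24 and 3.07 CPM. On its other side Mp5g21740 fell by 0.72 on the log2 scale in the wild type and 0.78 in the mutant (edgeR adjusted p = 0.00209 and 0.00113). In the same stretch Mp5g21730 was also called lower, and MpPPO26, Mp5g21710 and Mp5g21720 had means of 0 CPM throughout.

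Over the whole set there were 71 adjacent genes that were neither members nor among the loci left out. Of these, 51 were tested, and 24 (47.1%) were called higher in both genotypes, where 24.6% of all tested genes were. A log2 fold change of at least 2 in both genotypes was found in 15 of the 51 (29.4%), against 2.85% of all tested genes. The strand setting of the counting is not given in the sources used here, and reads of near-identical copies or of overlapping neighbours could not be separated. How far levels of adjacent genes are independent was not tested.

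**Figure D3:**
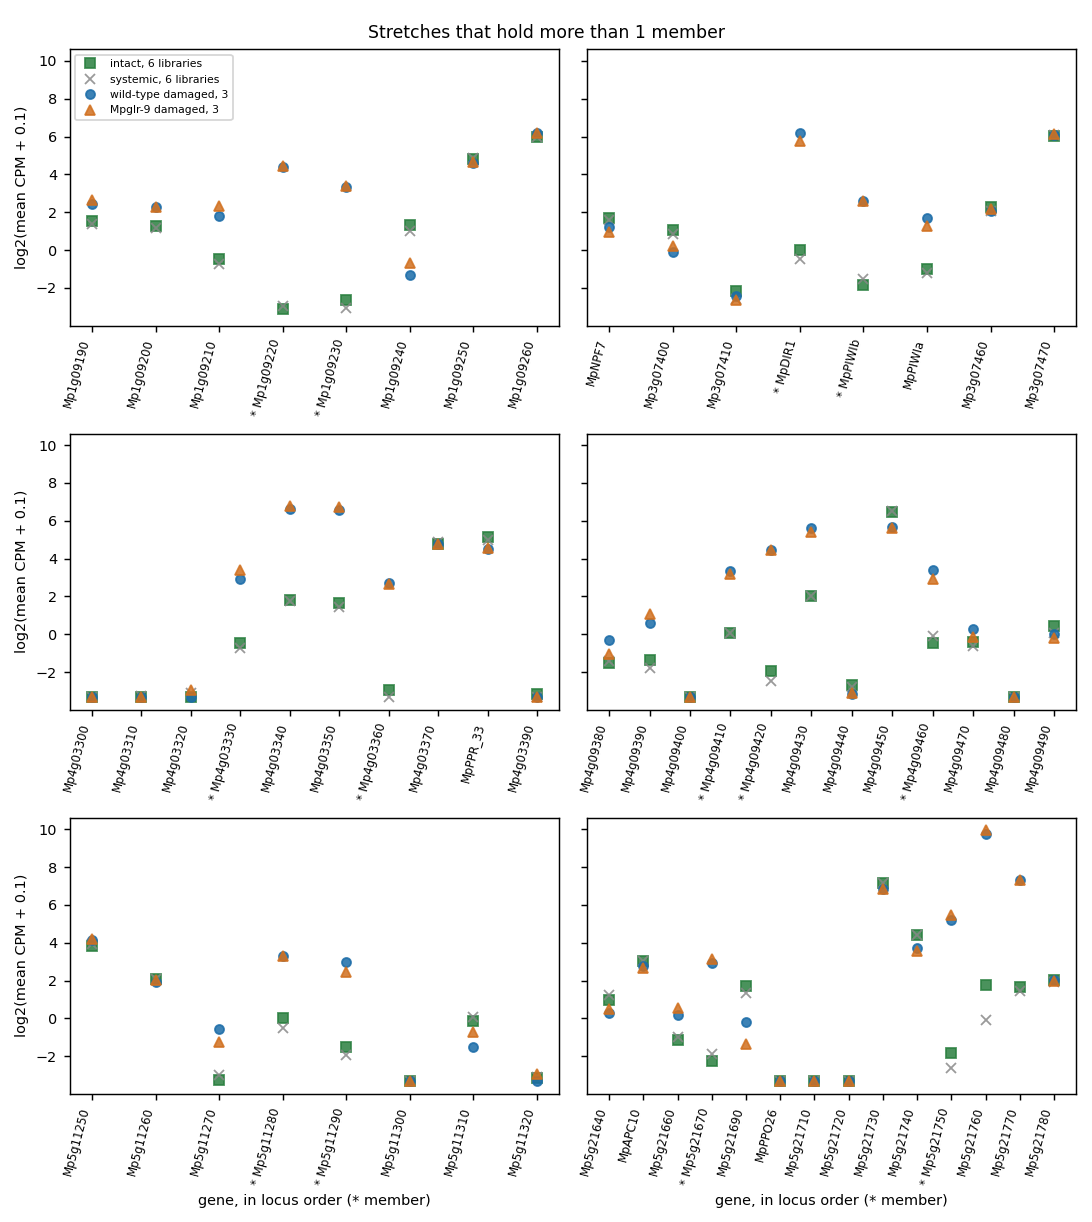
Mean levels as log2(mean CPM + 0.1) along the 6 stretches with more than 1 member (asterisk), in locus order without loci left out by the rule, for intact (6 libraries), systemic (6), wild-type damaged (3) and Mpglr-9 damaged (3). Damaged points stand above intact points for members and for neighbours such as Mp4g03340 and Mp5g21760, and they coincide with them for neighbours such as Mp1g09260.

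The untouched lobes of wounded plants took no part in choosing the genes. There, too, the set stayed low. All 40 genes had a systemic mean below 1 CPM over 6 libraries, with a median of 0.324 CPM, and 33 were below 1 CPM in every systemic library. Summed over the 40 genes, systemic libraries held 12.8 to 14.7 CPM in the wild type and 14.6 to 16.3 CPM in the mutant. Intact libraries held 15.4 to 24.4 and 14.6 to 22.0 CPM, and damaged libraries 585 to 988 and 610 to 1054 CPM. The lowest damaged library exceeded the highest systemic library in every gene, which the rule's limit for damaged lobes favours. The share of all tested genes with this order was not counted, so nothing is read from it. For MpPPO31 the systemic levels were 0.106, 0.0539 and 0.179 CPM in the wild type and 0, 0.122 and 0 CPM in the mutant. MpBHLH51 had 5 reads in the 6 systemic libraries together, and Mp4g03360 had none, which allows up to 0.106 to 0.162 CPM per library.

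The highest systemic means belonged to Mp1g16530 (0.946 CPM), Mp4g09410 (0.931), Mp4g09460 (0.825), Mp4g23340 (0.814) and Mp2g16410 (0.757). For Mp1g16530 the values were 0.740, 1.02 and 0.718 CPM in the wild type and 0.636, 1.42 and 1.14 CPM in the mutant, and its intact levels were 0.447 to 1.15 CPM, so the groups overlapped. Systemic minus intact differences share the intact levels that the rule kept low, and they are given as a description. The genes had a median of 45 reads over the 6 systemic libraries, and without damaged libraries only 18 of them passed the filter on low counts in the wild type, 19 in the mutant and 24 in both together. The counts of calls that follow therefore say little about the set. The systemic mean was below the intact mean in 33 genes and above it in 7. By edgeR, 0 of the 40 genes were called in the wild type, in the mutant or in both together, beside 0.0% of all tested genes in each. At an unadjusted p under 0.05 there were 4 members in each of the 3 comparisons, where 2.62%, 6.02% and 5.75% of all tested genes fell. DESeq2 and limma-voom called 0 members as well. At an unadjusted p under 0.05 DESeq2 placed 11, 5 and 6 members and limma-voom 0, and over all tested genes DESeq2 called 8, 0 and 23.

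The genotypes were compared in each state, with p-values adjusted over all 13450 tested genes. All 40 genes passed the filter on low counts, which they could do through the damaged libraries alone. The rule also asked for at least 5 CPM in damaged lobes of each genotype, so a gene that did not reach this level in Mpglr-9 could not be in the set. The comparison in damaged lobes is thus between genes kept for being read in both genotypes, and it does not show whether the mutant lacks the response of other genes. In damaged lobes 0 members were called by edgeR, against 0.0297% of all tested genes, and 0 members had an unadjusted p under 0.05, against 5.81%. DESeq2 and limma-voom also called 0 members. At an unadjusted p under 0.05 they placed 1 and 6 members, beside 758 and 741 of the 13450 tested genes. The log2 fold change of the mutant over the wild type ran from -0.55 (Mp5g11290) to 0.68 (Mp4g19940), with a median of -0.02 beside a median of 0.00181 over all tested genes, and 17 members were above and 23 below 0. The 95% interval lay within 1 of 0 on the log2 scale in 26 of the 40 members, against 86.5% of all tested genes, so for the other 14 a difference of more than 2-fold was inside the interval. Smallest in p were Mp4g03330, at 0.51 ± 0.25 (SE; edgeR adjusted p = 0.853), and MpPPO31, at 0.57 ± 0.28 (SE; edgeR adjusted p = 0.853). All 3 libraries of a genotype lay above all 3 of the other in 3 members, 7.5% beside 8.0% of all tested genes. Mp4g19940 and Mp5g16220 were higher in the mutant and Mp4g09460 was higher in the wild type.

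**Figure D4:**
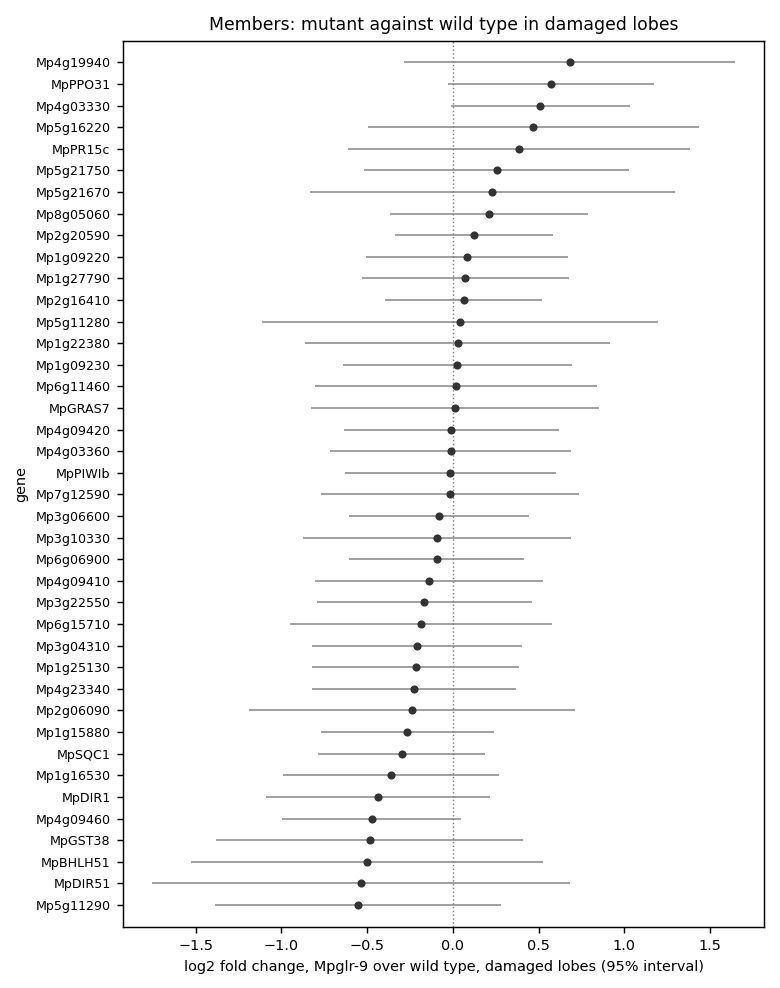
Log2 fold change of Mpglr-9 over wild type in damaged lobes for the 40 genes, ordered by value, with 95% intervals from the edgeR fit to all genes. Points run from -0.55 to 0.68 and all 40 intervals include 0.

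In untouched lobes, a state the rule did not use, edgeR called 0 members, against 0.052% of all tested genes. Only 16 of the 40 genes passed the filter on low counts in a fit to the systemic libraries alone, so 0 calls says little about the set. At an unadjusted p under 0.05 there was 1 member, 2.5% of the set beside 5.0% of all tested genes. DESeq2 and limma-voom called 0, with 3 and 0 members at an unadjusted p under 0.05. The member under 0.05 with edgeR was MpSQC1, at 0.317, 0.431 and 0.179 CPM in the wild type and 0.0454, 0.0811 and 0.0877 CPM in the mutant. The mutant libraries were all lower, at a log2 fold change of -2.00 ± 0.81 (SE; edgeR adjusted p = 0.897), with 26 reads in the 6 libraries together. The next smallest p belonged to Mp1g09220, with 4 reads, all in the mutant (edgeR adjusted p = 0.948). Non-overlapping genotypes were found in 4 members, 10% beside 14.5% of all tested genes, with Mp1g27790 higher in the mutant and Mp2g20590, Mp5g21750 and MpSQC1 higher in the wild type. The 95% interval of the difference was within 1 of 0 on the log2 scale in 4 members, against 87% of all tested genes.

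Intact plants gave no called member either (0.0223% of all tested genes were called), by edgeR, DESeq2 or limma-voom. At an unadjusted p under 0.05 there were 5 members, 12.5% of the set where 2.99% of all tested genes fell, and 4 of the 5 were lower in the mutant. DESeq2 and limma-voom placed 7 and 2 members there. All 3 libraries of a genotype lay above all 3 of the other in 3 members, 7.5% beside 10.2% of all tested genes. These were Mp2g20590, Mp4g03360 and Mp7g12590, higher in the wild type. For Mp4g03360 this order rested on 1, 1 and 3 wild-type reads against 0 in the mutant. For Mp7g12590 the lowest wild-type library had 0.2607 CPM and the highest mutant library 0.2606 CPM. The rule kept the mean of both genotypes low here, and genes could pass the filter on low counts through damaged libraries alone. The share of members at an unadjusted p under 0.05 therefore says little about the set. Mp1g22380 had the smallest p, with 0.0356, 0.222 and 0.489 CPM in the wild type and 0, 0 and 0.0731 CPM in the mutant (edgeR adjusted p = 1). Mp5g16220 went the other way, with 0.285, 0.178 and 0.684 CPM in the wild type and 0.862, 0.558 and 2.70 CPM in the mutant (log2 fold change 1.80 ± 0.61, SE; edgeR adjusted p = 1). In intact and in damaged tissue libraries of the same number deviated together, and with replicate number as a block the count of called members in each state was again 0. With a block inside each condition, chosen after seeing the data, Mp5g16220 was called in intact plants (1.83, edgeR adjusted p = 0.0173, over all alternatives 0.0173 to 1).

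Averaged over the 3 states, 0 members were called by edgeR, beside 0.312% of all tested genes, and 4 had an unadjusted p under 0.05 (8.39% of all). Intact and systemic levels, which were close to 0, enter this average. The 95% interval lay within 1 of 0 on the log2 scale in 19 members, against 94.9% of all tested genes. For Mp1g09220 and Mp4g03360 the standard errors were 393 and 2256, so the average could not be judged. Smallest were Mp5g16220, higher in the mutant by 1.15 ± 0.36 (SE; edgeR adjusted p = 0.312), and MpSQC1, with a lower mean in the mutant (edgeR adjusted p = 0.346). That block also groups systemic libraries by number, where wild-type 1 correlated at 0.0876 with mutant 1 and at 0.32 with mutant 2, in deviations from group means. With this replicate block inside each condition, chosen after seeing the data, edgeR called 3 members in place of 0. These were Mp5g16220 (adjusted p = 0.00122), MpSQC1 (adjusted p = 0.0171) and Mp5g21750 (adjusted p = 0.0316). Over all alternatives their adjusted p ran from 0.00122 to 0.565, from 0.0171 to 0.732 and from 0.00790 to 0.814, the last with its lowest value in DESeq2, which called Mp5g21750 alone. For Mp5g21750 the lower mutant average rests on few reads, 3 in intact and 0 in systemic mutant libraries against 26 and 9 in the wild type, and no fold is given. In damaged lobes its mean was 43.9 ± 18.2 CPM in the mutant and 37.3 ± 10.3 CPM in the wild type (SD, n = 3), with overlapping libraries. By limma-voom 0 members were called. Members at an unadjusted p under 0.05 numbered 6 with DESeq2 and 1 with limma-voom.

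Interaction terms tested whether the mutant departed from intact levels by another amount than the wild type. For damaged and for systemic lobes edgeR called 0 members and 0.0% of all tested genes, and DESeq2 and limma-voom called 0 genes. The first of these terms is built from the levels that the rule used, and for the second 24 of the 40 genes passed the filter without damaged libraries, so neither count is evidence that the genotypes respond alike. For damaged lobes 4 members had an unadjusted p under 0.05 with edgeR, beside 2.49% of all tested genes, 5 with DESeq2 and 1 with limma-voom. Mp1g22380 and Mp4g03360 had the smallest p (edgeR adjusted p = 1 for both), and their damaged levels were 8.93 ± 0.212 and 9.01 ± 1.87 CPM, and 6.40 ± 2.57 and 6.28 ± 1.30 CPM, in wild type and mutant (SD, n = 3). For systemic lobes there were 2 members with edgeR, beside 2.65% of all tested genes, 2 with DESeq2 and 0 with limma-voom. The 2 with edgeR were Mp1g09220 and Mp8g05060 (edgeR adjusted p = 1 for both). Mp8g05060 had 0.458, 0.377 and 0.224 CPM in wild-type and 1.45, 0.649 and 0.438 CPM in mutant systemic libraries. Intervals of the interaction lay within 1 of 0 in 2 members for damaged and in 0 members for systemic lobes, so that most differences of this kind up to 2-fold were not detectable at this depth.

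Damaged libraries of the same genotype were not alike, and they differed in the same way in both genotypes. Library 1 was the highest of the 3 in both genotypes in 31 of the 40 genes, and library 3 was the lowest in both in 31. Among 343 other genes called higher by at least 2 on the log2 scale in both genotypes, library 1 was highest in both in 74.3% and library 3 lowest in both in 63.8%. Over the 10193 genes with at least 5 CPM in damaged lobes of both genotypes the shares were 15.4% and 18%. The median ratio of library 1 to library 3 was 1.77 in the wild type and 1.78 in the mutant for the 40 genes, and 1.48 and 1.47 for the 343 others. On the first principal component of all tested genes, which separates damaged from other libraries, the damaged libraries numbered 1 lay at 81.1 and 79.0 and those numbered 3 at 56.4 and 56.8. The labels do not say what a library number stands for, and its part in these levels was not tested.

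The steepest ratios of library 1 to library 3 were those of MpBHLH51, 3.95 and 3.30, and in the wild type MpPR15c (3.40) and Mp7g12590 (3.09). Mp5g11280 and Mp5g11290, which are adjacent, went the other way and were highest in library 3 in both genotypes. Mp5g11280 was at 5.89, 8.72 and 14.2 CPM in wild-type and 8.21, 8.66 and 12.6 CPM in mutant damaged lobes, and Mp5g11290 at 6.93, 7.35 and 9.22 CPM and 4.04, 3.67 and 8.21 CPM. Library 3 was also the highest of the 3 for Mp5g11280 in intact plants, at 1.63 CPM in the wild type and 1.53 CPM in the mutant.

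**Figure D5:**
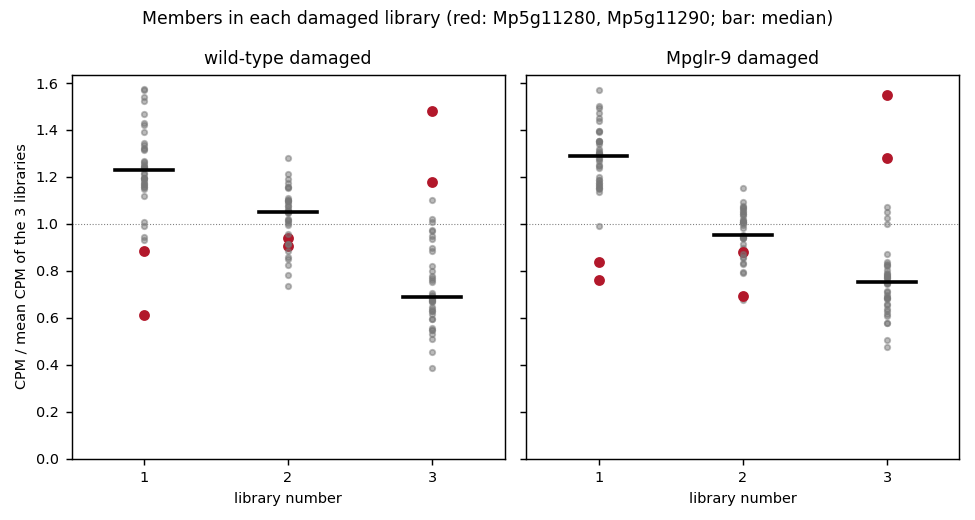
Each gene's CPM in a damaged library divided by the mean of the 3 damaged libraries of that genotype, by library number, with a bar at the median of the 40 genes and Mp5g11280 and Mp5g11290 in red. Most genes lie above 1 in library 1 and below 1 in library 3 in both genotypes, and the red points lie above 1 in library 3.

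The few reads of intact plants were also unevenly spread. In 22 of the 40 genes the highest intact library was a library numbered 3, in 15 of them that of the wild type and in 7 that of the mutant. In 11 genes a single library held at least 40% of the summed intact CPM. Wild-type library 3 held 58.4% for MpPPO31, and mutant library 3 held 51.3% for Mp5g16220, 49.2% for MpDIR51 and 45.0% for Mp2g06090. On the second principal component of all tested genes the intact libraries numbered 3 lay at 36.9 and 29.8, and the other intact libraries between -30.9 and -17.7. Without the libraries numbered 3, an alternative chosen after seeing the data, the rule would take 55 genes, among them 38 of the 40.

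Over the 6 damaged and 6 systemic libraries, the tested genes whose log2 CPM was most correlated with that of MpPPO31 were MpCYP821-like, Mp7g03650 and MpHMG, at Pearson r of 0.997 each. Their damaged means in the wild type were 61.5, 111 and 691 CPM, and their intact means 4.15, 2.82 and 174 CPM. For Mp8g05060 they were Mp1g09220, a member, Mp7g10010 and MpBHLH4, at 0.996, 0.995 and 0.995. For MpDIR1 they were MpMATE1, MpABC65 and Mp8g10500, at 0.998, 0.997 and 0.997. Damaged and systemic libraries form 2 separate clusters in these genes, and each r spans both.

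Within the 6 damaged libraries alone, an addition made after seeing the data, other genes came first. For MpPPO31 they were MpHD7, Mp4g12850 and Mp3g16190 (r of 0.991, 0.986 and 0.982), whose damaged means in the wild type, 8.25, 37.1 and 18.4 CPM, were near their intact means of 8.24, 37.2 and 14.5 CPM. These values are descriptions over libraries that differ in depth and library number, and the part of either was not tested.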

How the data were processed

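RNA of thallus was measured in 18 libraries of 6 groups. Per the labels' protocols, poly-A selected RNA was sequenced as paired reads; HISAT2 and HTSeq are named in the submitters' processing notes, whose versions and strand setting, like the build, the sources used here do not give. Raw counts per gene are what the authors deposited. Locus numbers matched 17384 of the 19355 identifiers, and 36 of the 40 members, to the gene table of MpTak2_v7.1, which gave symbols only. Gene order is that of the deposited counts. No sequence was used here, so the promoter motifs planned were not searched. Expression of MpGLR was not analysed here, since the names pair no identifier with it. The members and lists were chosen with earlier results of these data known.

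CPM is the count divided by the column sum, times 1000000. The counts were tested in edgeR 4.0.16 (R 4.3.3) with filterByExpr by group (13450 genes), TMM scaling and a robust quasi-likelihood fit of 6 group means to all 18 libraries; p-values were two-sided, adjusted by Benjamini-Hochberg, and called under 0.05. The standard error is the log2 fold change divided by the square root of F, and 95% intervals use the t quantile of the fit's degrees of freedom. The fit was tested on simulated data with the same mean level in every group and changes in systemic mutant libraries only. These data did not mimic genes near 0 outside damaged lobes, so they say nothing about the members. Alternatives used DESeq2 1.42.0 and limma 3.58.1, upper-quartile scaling, no filter, only the groups compared, a replicate block and each library left out. The labels call the libraries biological replicates of pooled plants. Deviations from group means of same-numbered libraries correlated between the genotypes above 0.1 in intact (0.314 to 0.680) and damaged tissue (0.117 to 0.391). In systemic tissue the lowest was 0.0370. Intact libraries 1 and 2 were not told apart by number, as wild-type 1 with mutant 2 gave 0.322 and wild-type 2 with mutant 1 gave 0.374. In damaged tissue wild-type 2 with mutant 1 gave 0.0896, beside 0.117 for the libraries numbered 2.

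Genes named were members with a symbol, the 15 with the highest damaged and the 5 with the highest systemic mean CPM, called members or the 2 with the smallest p in each genotype comparison, the 3 genes on each side of a limit, and the 3 genes most correlated with each of the top 3 members over damaged and systemic libraries.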

Additional observations from a re-analysis of the deposited data

How the results depend on the processing

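The set held 40 genes with CPM from column sums or TMM-scaled sizes, 27 with every intact library under 1 CPM, 31 with every damaged library at or above 5 CPM, and 37 to 44 with any intact or damaged library left out. It held 23 genes with an intact limit of 0.5 CPM and 22 with a damaged limit of 10 CPM, since these limits are stricter by construction. Called members stayed at 0 in all 9 comparisons other than damaged with intact, and at 40 in those, with limma-voom, upper-quartile scaling, no filter, the replicate block, any library left out, all libraries numbered 3 left out, or only the groups compared, where 16 to 24 members were tested without damaged libraries. The exceptions were DESeq2, with 1 member in the average over states, and the block within each condition (chosen after seeing the data), with 1 in intact plants and 3 in the average, namely Mp5g16220 (1.19, edgeR adjusted p = 0.00122), Mp5g21750 (adjusted p = 0.0316) and MpSQC1 (adjusted p = 0.0171). The cause was not tested. Over all alternatives the adjusted p of the average ran from 0.00122 to 0.565 for Mp5g16220 and from 0.0171 to 0.732 for MpSQC1.

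Over all tested genes the genotype comparison in systemic lobes called 7 genes with edgeR, 33 with DESeq2, 28 on the groups alone, 16 with the replicate block, 44 with the block within conditions and 3 to 11 with a library left out. In damaged lobes it called 4, and 29, 2, 9, 49 and 3 to 11 in the same order. In intact plants it called 3, with 7 by DESeq2 and 17 with the block within conditions. The average called 42, with 112 by DESeq2, 84 and 259 with the blocks and 21 to 59 with a library left out. Systemic against intact called 0 genes, 1 with the replicate block in the wild type and 11 with genotypes together. Without the libraries numbered 3 the genotype comparisons called 12 genes in systemic and 14 in damaged lobes. Upper-quartile scaling gave 2901 higher calls of 7669 for damaged against intact wild-type lobes, in place of 3731 of 7469, and 2813 of 7436 in the mutant, in place of 3712 of 7369. Depth limited the comparisons without damaged lobes: between the genotypes, the 95% interval lay within 1 of 0 on the log2 scale in 4 members in systemic lobes and 6 in intact plants, and in 12 for systemic against intact libraries of both genotypes, so for the others a 2-fold difference could be missed.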
